A study of Mus musculus with 6 samples.

Results

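miRNA reads whose 5′ end lay 1 to 3 nt before or after the usual start of their arm were collected from the small RNA reads of mouse bone marrow monocytes (BMMs). The usual start, here called the main start, was the position with most reads summed over the 3 control samples. Only arms (5p or 3p strand of a hairpin) with 1000 or more reads in total were kept, and a read had to be 18 nt or longer and match a GENCODE hairpin exactly. By this rule 1490 of the 738360 distinct read sequences in the files were shifted reads, and they held 652577 of the 19649018 reads of 159 kept arms (88 on the 5p and 71 on the 3p side). The members were thus chosen by the read counts of the control samples, which set the main start, and by the total reads of an arm. The control shares below are therefore a description and were not tested by themselves.

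All samples came from wild-type C57BL/6 bone marrow monocytes in culture, either given PBS as control (n = 3) or 5 pg/ml LPS, the endotoxin of Gram-negative bacteria, for 4 h (n = 3). The study asked which miRNAs a very low dose of LPS changes in these cells. The labels number the samples 1 to 3 in each group and do not say whether they were separate cultures, so the tests measure the spread between these samples, which may be technical. The files held 2415199 to 3880822 reads in the control samples and 2201520 to 17691405 in the LPS samples, of which 54.4% to 63.5% matched hairpins. LPS replicate 2 stood apart from the rest in its depth and in its share of sequences with a single read, which was 18.6% of the distinct sequences there and 67.1% to 74.6% elsewhere. Several results that rest on it, but not all, are given with and without it. Without its reads 32 of the 159 arms would fall below the limit of 1000. Of the myeloid markers, miR-223-3p stood at 5578 to 6153 reads per 1000000 miRNA reads (RPM) in the 6 samples and miR-142a-5p at 19921 to 29397. Another of them, miR-155-5p, was low. It stood at 48.9 to 72.3 RPM in the control samples and LPS replicates 1 and 3, and at 221.5 RPM in LPS replicate 2. The sum over all 6 markers, 169960 to 224661 RPM, was mostly miR-21a-5p, which other cell types also express, and in LPS replicate 2 it held 51876 RPM of miR-146a-5p. Markers of other cells were low: the liver marker miR-122-5p and 3 muscle markers had no reads, and the highest sums in any sample, in RPM, were 1.30 for 3 erythroid markers, 11.7 for 4 fibroblast, 41.0 for the lymphoid marker miR-150-5p, 53.2 for 2 endothelial, 168 for 7 epithelial and 253 for 3 neural markers, the last mostly miR-128-3p.

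The 5′ end of a miRNA is set by the enzymes that cut it from its hairpin. Drosha cuts the base of the primary hairpin in the nucleus and so fixes the start of the 5p arm, whereas Dicer cuts near the loop and fixes the start of the 3p arm. Bases 2 to 8 from the 5′ end form the seed, which pairs with target mRNAs inside Argonaute. A read that begins elsewhere, called a 5′ isomiR, therefore has another seed, while a read that differs only at its 3′ end keeps it.

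Some starts with a large share of their arm are shown first, among them the 2 with most shifted control reads, in miR-142a-5p and miR-10a-5p. Each line gives the most-read sequence at that start, 5′ to 3′ with T for U, with the seed in capitals, so that the change of seed can be read off against the main start.
miR-142a-5p, main start: cATAAAGTagaaagcactact
miR-142a-5p, 2 nt upstream: cCCATAAAgtagaaagcact
miR-142a-3p, main start: aGTGTTTCctactttatggatg
miR-142a-3p, 2 nt upstream: gTAGTGTTtcctactttatgga
miR-142a-3p, 3 nt upstream: tGTAGTGTttcctactttatgga
miR-140-3p, main start: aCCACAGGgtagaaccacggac
miR-140-3p, 1 nt upstream: tACCACAGggtagaaccacgga
miR-146a-5p, main start: tGAGAACTgaattccatgggtt
miR-146a-5p, 1 nt upstream: cTGAGAACtgaattccatgggtt
miR-10a-5p, main start: tACCCTGTagatccgaatttgt
miR-10a-5p, 1 nt downstream: aCCCTGTAgatccgaatttgtg
miR-125b-5p, main start: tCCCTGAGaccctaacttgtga
miR-125b-5p, 1 nt downstream: cCCTGAGAccctaacttgtga
The miR-101 and miR-29 families are shown because members of one family gained the same second seed. A start 1 nt downstream gave miR-101a-3p and miR-101b-3p the seed ACAGTAC, and a start 1 nt upstream gave miR-29a-3p and miR-29b-3p the seed TAGCACC.
miR-101a-3p, main start: gTACAGTActgtgataactgaa
miR-101a-3p, 1 nt downstream: tACAGTACtgtgataactgaa
miR-101b-3p, main start: gTACAGTActgtgatagctga
miR-101b-3p, 1 nt downstream: tACAGTACtgtgatagctgaag
miR-29a-3p, main start: tAGCACCAtctgaaatcggtta
miR-29a-3p, 1 nt upstream: cTAGCACCatctgaaatcggtt
miR-29b-3p, main start: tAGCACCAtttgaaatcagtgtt
miR-29b-3p, 1 nt upstream: cTAGCACCatttgaaatcagtg
miR-24-3p is shown as the miRNA on which the study centred.
miR-24-3p, main start: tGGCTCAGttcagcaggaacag
miR-24-3p, 1 nt upstream: cTGGCTCAgttcagcaggaac
miR-24-3p, 1 nt downstream: gGCTCAGTtcagcaggaacag

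Most arms started precisely and a minority had a second start of similar weight. The mean control share of shifted reads was under 1% in 76 of the 159 arms, from 1% to under 5% in 41, from 5% to under 10% in 11, from 10% to under 30% in 16 and at 30% or more in 15. The median arm had 1.12% shifted reads in the control samples. A share of 10% or more occurred in 19 of 71 arms on the 3p side and in 12 of 88 on the 5p side, with medians over arms of 2.62% and 0.731%. Among the 40 hairpins with both arms kept, the 3p arm had the higher share in 28, and both arms reached 10% in 1 hairpin, miR-142a. In the 83 arms with a control share over 1%, the most-read shift was 1 nt downstream in 37 and 1 nt upstream in 30, and a shift of 3 nt led in 4 arms (2 in each direction).

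A few abundant miRNAs made up most of the shifted reads. The start 2 nt upstream in miR-142a-5p held 35.1% of all shifted control reads, and the start 1 nt downstream in miR-10a-5p held 22.8%. The 10 most-read shifted starts together held 79.1%, among them starts in miR-21a-5p, miR-191-5p, miR-27b-3p and miR-22-3p that were rare within their arms but came from very abundant miRNAs. miR-22-3p, the most abundant arm at 21.9% of miRNA reads, had 0.327% ± 0.00326 (SD, n = 3) shifted reads in the control samples. The next most abundant, miR-27b-3p and miR-21a-5p, had 0.455% ± 0.00406 and 0.801% ± 0.0255 (SD, n = 3). Of the other most abundant arms, miR-16-5p (0.141%), let-7f-5p (0.0870%) and miR-30d-5p (0.217%) were lower still, miR-26a-5p had 0.365%, miR-191-5p 2.54%, miR-10a-5p 24.5% and miR-142a-5p 46.7%.

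miR-142a, a hairpin restricted to blood cells, lies on chromosome 11 (GRCm38, 87756864 to 87756927, plus strand), in an intron of the lincRNA gene Mir142hg. The 2 nt upstream start of its 5p arm held 47.2%, 44.0% and 42.7% of the arm's reads in control samples 1 to 3 and 46.7%, 34.8% and 42.6% in LPS samples 1 to 3. LPS replicate 2 was the lowest sample, LPS replicate 1 lay within the control range and LPS replicate 3 just below it. The 3p arm was divided between more starts. In the control samples 26.8%, 25.1% and 26.6% of its reads began 3 nt upstream and 16.4%, 17.0% and 18.2% began 2 nt upstream, and the LPS samples had 27.03%, 39.8% and 27.4% at the first and 15.5%, 27.5% and 20.1% at the second. LPS replicate 2 thus had the highest share at both upstream starts of the 3p arm and the lowest at that of the 5p arm. In RPM, the 3 nt upstream start of miR-142a-3p stood at 2865 in LPS replicate 2, which was 2.87 times the control mean, whereas its main start stood at 2211 (1.09 times). For the 5p arm, the 2 nt upstream start was at 0.566 and the main start at 0.853 times the control mean in that sample.

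miR-140-3p lies in an exon of a transcript of Wwp2 (chromosome 8, 107551244 to 107551313, plus strand). The start 1 nt upstream held 43.7%, 41.9% and 48.5% of its reads in the control samples and 44.7%, 68.8% and 50% in the LPS samples. LPS replicate 1 lay within the control range and LPS replicate 3 slightly above it, and LPS replicate 2 lay far above every other sample. The level of the upstream start in that sample, in RPM, was 3.43 times the control mean and that of the main start 1.29 times. Because of LPS replicate 2, the most-read start of miR-140-3p and of miR-142a-3p differed between the control and the LPS samples, 2 of the 159 arms. Without that sample 0 arms differed.

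miR-146a-5p, induced by NF-κB and known to dampen signalling from Toll-like receptors, had the widest spread over the control samples of all arms with 10000 or more reads (SD 13.1 percentage points for its shifted share, n = 3). Its hairpin lies on chromosome 11 (43374397 to 43374461, minus strand) outside other annotated genes. The start 1 nt upstream held 49.2%, 35.1% and 23.1% of the reads in control samples 1 to 3 and 49.8%, 1.68% and 20.5% in LPS samples 1 to 3. These differences exceeded counting error, since the largest 95% Wilson interval of any sample reached 1.31 percentage points to either side. In LPS replicate 2 the main start of miR-146a-5p stood at 50979 RPM, against 1657 to 2559 in the other samples. The upstream start, by contrast, stood at 870 RPM in that sample and at 558 to 1654 in the others. The low share in LPS replicate 2 therefore went with 24.6 times the control mean at the main start and with 0.719 times at the upstream start. No difference between the groups was found for the upstream share (log2 ratio -0.58, SE 0.94, edgeR adjusted p = 0.881).

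In miR-24-3p the shares were smaller, and LPS replicate 2 again stood apart by a low shifted share. Its reads come from hairpins on chromosomes 13 and 8 that cannot be told apart, and the chromosome 13 hairpin (63301208 to 63301275, plus strand) lies in an exon of a transcript of 2010111I01Rik. Shifted reads made up 3.00%, 2.82% and 2.03% of the arm in the control samples and 3.47%, 0.713% and 2.204% in the LPS samples, with LPS replicate 2 the lowest. In that sample the main start was at 40015 RPM, 39.7 times the control mean, against 780 to 1327 RPM in the other samples. LPS replicates 1 and 3, at 844 and 1231 RPM, lay within the control range. Unlike the upstream start of miR-146a-5p, the shifted starts of miR-24-3p in LPS replicate 2 were above the control mean. They stood at 2.46 times the control mean 1 nt upstream, 13.6 times 1 nt downstream and 67.1 times 2 nt downstream. The last of these rests on 10 reads in the 3 control samples together. Across the groups the log2 ratio of the shifted share of miR-24-3p was -0.51 (SE 0.58, edgeR adjusted p = 0.923). Without LPS replicate 2, the mean shifted shares of the LPS samples came close to those of the control samples in all 5 arms described so far. They were 46.8% against 46.7% for miR-142a-5p, 48.4% against 46.8% for miR-142a-3p, 48.8% against 46.5% for miR-140-3p, 35.4% against 36.1% for miR-146a-5p and 2.84% against 2.62% for miR-24-3p. The 5p arm of the chromosome 8 hairpin, miR-24-2-5p, had 4.04% ± 0.702 shifted reads in the control and 4.10% ± 1.32 in the LPS samples (SD, n = 3).

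The miR-29 family shares its main seed, AGCACCA, yet its members differed in how often they started 1 nt upstream. miR-29a-3p had 15.8%, 16.6% and 15.1% at that start in the control samples and 15.7%, 13.9% and 15.9% in the LPS samples. In miR-29b-3p the values were 8.44%, 9.97% and 12.3% in the control and 11.1%, 12.0% and 13.1% in the LPS samples. By contrast miR-29c-3p, with the same main seed, had 0.268%, 0.409% and 0.350% in the control and 0.210%, 0.128% and 0.707% in the LPS samples. In each of the 6 samples miR-29a-3p was the highest and miR-29c-3p the lowest, and the groups overlapped within each member. Separately, miR-29a-5p had 0%, 0% and 1.27% shifted reads in the control samples, from 177 control reads.

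Both members of the miR-101 pair had a frequent second start. The 1 nt downstream start of miR-101a-3p held 31.5%, 28.6% and 29.1% in the control and 31.2%, 34.7% and 29.3% in the LPS samples. For miR-101b-3p it held 32.6%, 30.9% and 33.7% in the control and 33.1%, 32.4% and 30.7% in the LPS samples, higher than miR-101a-3p in 5 of the 6 samples. The difference between the members was not tested. The pair comes from different chromosomes, 4 and 19. RefSeq (GRCm38.p6) lists miR-101b-3p from the main start and miR-101a-3p from the 1 nt downstream start, although both starts were used by both.

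miR-10a-5p and miR-125b-5p, which have roles in haematopoiesis, both lost their first base in part of the reads. The 1 nt downstream start of miR-10a-5p held 22.1%, 23.98% and 23.7% in the control and 21.6%, 22.1% and 24.04% in the LPS samples. With at least 43765 reads of this arm in every sample, it was one of the most precisely measured shares. miR-125b-5p had 18.7%, 18.4% and 17.2% at that start in the control and 18.5%, 18.4% and 16.6% in the LPS samples. The other arm of a miR-125b hairpin, miR-125b-2-3p, was spread over starts 2 nt (control mean 17.4%) and 3 nt upstream (9.27%).

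Other well-read arms with a high share were miR-210-3p, which is induced in hypoxia, with 15.1% ± 2.93 in the control and 15.8% ± 2.74 in the LPS samples, and miR-192-5p with 14.9% ± 1.70 and 14.9% ± 3.23 (SD, n = 3). Shares of 19.4% ± 1.14 in the control and 16.9% ± 2.86 in the LPS samples were found for miR-21a-3p, the passenger strand of miR-21a, and miR-423-3p had 11.6% ± 0.680 and 10.2% ± 1.34 (SD, n = 3). Of the 31 arms at 10% or more, 14 had 10000 or more reads in total, and the median coefficient of variation of the control share over these 31 arms was 9.48%. The mean of LPS replicates 1 and 3 lay within 1 control SD of the control mean in 24 of the 31 arms. With all 3 LPS samples the mean did so in 23.

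Among the 10 highest control shares were also those of poorly read arms. miR-425-3p had the highest mean, 51.9% ± 14.1 (SD, n = 3), from 120 control reads, and it reached 1000 reads only through LPS replicate 2, which held 2178 of its 2382 reads. miR-1843a-5p (50.4% ± 3.13), miR-3068-3p (46.6% ± 5.25) and miR-1839-5p (41.4% ± 2.37) were also among the 10, and the reads of these 3 arms also occur in genes annotated as scaRNA or snoRNA. miR-361-3p, in an intron of Chm, had 44.9% ± 2.30 in the control and 44.9% ± 0.984 in the LPS samples, nearly all from a start 1 nt upstream. miR-106b-3p, in an intron of Mcm7, had 43.1% ± 4.08 and 39.5% ± 3.82, mostly 2 nt upstream, and miR-222-5p had 37.5% ± 3.00 and 40.5% ± 5.46 (SD, n = 3). At the other end, 12 of the 159 arms had no shifted read in any control sample. The deepest of them, miR-182-5p, had 0 among its 1280 control reads, which allows a share of up to 0.234%, and 0 among 4366 reads in all samples. miR-128-3p had 0 of 1174 control reads, which allows up to 0.256%. miR-27a-5p, miR-18a-5p and miR-350-5p also had 0 and rested on fewer reads. These limits cover counting error only.

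Near the limit of 1000 reads, miR-28a-3p (1026 reads, 12.2% shifted over all samples), miR-574-3p (1048 reads, 0.573%) and miR-322-3p (1065 reads, 36.0%) were kept. miR-374b-5p (992 reads, 0.101%), miR-350-3p (970 reads, 0%) and miR-362-3p (960 reads, 1.25%) fell just below it.

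In most arms the main start found here was the one RefSeq lists. Of the 159 arms 140 matched a RefSeq mature miRNA, and in 134 of these the main start was the RefSeq start. The exceptions were miR-142a-3p, whose main start lay 3 nt downstream, miR-140-3p, miR-361-3p and miR-3068-3p, 1 nt downstream, and miR-101a-3p and miR-425-3p, 1 nt upstream. In all 6 exceptions the RefSeq start was the most-read shifted start. Reads at that start, though called shifted here, carry the RefSeq seed.

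Shifted starts seldom gave a seed that another kept arm uses as its main seed. Of the 45 shifted starts at 5% or more of their arm, which belonged to 38 arms, 0 did so. Over all 491 shifted starts with reads 8 did (1.63%), so the frequent starts did not stand apart in this. Of these 45 starts, 20 lay 1 nt downstream and 13 lay 1 nt upstream. The most-read sequence kept the 3′ end of the main start reads in 20 of them, and in the other 25 its 3′ end had moved in the same direction as the start. It had moved the opposite way in 0. A first base of T, as DNA, was found in 17 of the 45 shifted starts and in 10 of the 38 main starts of the same arms. A first base of A was found in 17 and 9, of C in 6 and 15 and of G in 5 and 4. Over all 159 main starts T was first in 69, A in 42, C in 41 and G in 7. Argonaute is known to hold a first U or A most tightly. Whether this bears on the starts seen here was not tested.

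Among all 491 shifted starts with reads, 8 had a seed that is the main seed of another kept arm, and each was under 0.1% of its arm in the control samples. The best read was miR-27b-3p 1 nt downstream, with the seed CACAGTG of miR-128-3p. It held 0.0530%, 0.0469% and 0.0511% of the arm in the control samples and 0.0513%, 0.0587% and 0.0484% in the LPS samples, that is, 557 control reads, against 1174 control reads for miR-128-3p itself. The pair is printed for comparison.
miR-27b-3p, 1 nt downstream: tCACAGTGgctaagttctg
miR-128-3p, main start: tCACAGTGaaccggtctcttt
The other 7 rested on 1 to 9 control reads each. They were miR-27a-3p 1 nt downstream (seed of miR-128-3p), miR-103-3p 1 nt upstream (miR-15 and miR-16 family), miR-301a-3p and miR-130b-3p 1 nt upstream (miR-148 and miR-152 family), miR-423-3p 2 nt upstream (miR-99a-3p), miR-151-5p 2 nt downstream (miR-28a-5p) and miR-484 2 nt downstream (miR-24-3p).

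No change in the overall extent of shifted starts was detected with LPS. They made up 3.75%, 3.33% and 3.42% of the reads in the control samples and 3.72%, 3.06% and 3.42% in the LPS samples, and the groups overlapped (difference -0.0977 percentage points, exact two-sided permutation test, p = 0.7). The smallest p this design allows is 0.1. The median share over the 159 arms was 1.10%, 1.12% and 1.11% in the control and 0.959%, 0.982% and 1.02% in the LPS samples (exact permutation p = 0.1), so that every LPS sample lay below every control sample. Over arms with 1000 reads in the control samples the difference went from -0.124 to -0.0806 percentage points (exact permutation p = 0.3), and with 3 bases at the 3′ end free not to match it was -0.0184 (p = 0.7, exact permutation test), with overlapping groups in both. Over arms with 10000 or more reads the difference of the medians was 0.0251 percentage points in the opposite direction. With reads of at least 20 nt it was -0.107, and with reads that match a single arm -0.125 (exact permutation p = 0.1 for both). Main starts set from all 6 or from the LPS samples left it at -0.124 (exact permutation p = 0.1 for both). A denominator within 3 nt gave -0.122 (exact permutation p = 0.1). Upstream shifts made up 2.10% ± 0.155 of control and 2.11% ± 0.146 of LPS reads and downstream shifts 1.41% ± 0.109 and 1.30% ± 0.279 (SD, n = 3, exact permutation p = 0.9 and 0.6).

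By hairpin arm, shifted reads made up 5.33% ± 0.430 of 5p reads in the control and 4.64% ± 1.33 in the LPS samples, and 1.70% ± 0.0940 and 2.19% ± 0.674 of 3p reads (SD, n = 3, exact permutation p = 0.5 and 0.2, and 0.8 for both after Benjamini-Hochberg adjustment over the 4 comparisons by direction and arm). LPS replicate 2 set both spreads, with 3.16% on the 5p and 2.96% on the 3p side. Without it the 5p difference was 0.0510 percentage points in favour of LPS and the 3p difference fell from 0.495 to 0.110. Over the 83 arms with a control share above 1%, LPS replicate 2 had the top value of the 6 samples in 30 and the bottom value in 18, whereas each other sample had the top value in 4 to 15 arms and the bottom value in 9 to 15.

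No single shifted start changed its share of the arm at an adjusted p under 0.05. With the arm's reads as the offset in edgeR's quasi-likelihood test, 0 of 142 starts with enough reads were higher and 0 were lower with LPS (percent called 0 in each direction), and 2 were higher and 2 lower at an unadjusted p under 0.05 (2.82% of those tested). For the summed shifted share of an arm, 0 of 92 arms were higher and 0 lower (percent called 0), with 1 higher and 2 lower at an unadjusted p under 0.05 (3.26%). DESeq2 and limma also called 0 in both comparisons. The median standard error was 0.25 on the log2 scale for a start and 0.20 for an arm, and the median log2 ratios were 0.01 in both.

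The starts with the smallest p had low shares for the most part. For miR-338-3p, 1 nt downstream, the shares were 2.15%, 3.41% and 3.11% in the control and 1.62%, 1.43% and 1.20% in the LPS samples (log2 ratio -0.97, SE 0.27). miR-28a-5p, 1 nt upstream, had 2.61%, 2.12% and 1.56% in the control and 0.803%, 1.23% and 0.765% in the LPS samples (log2 ratio -1.04, SE 0.31). In both the groups did not overlap, but these rested on 31 and 37 control reads, and the edgeR adjusted p was 0.815 for each. By summed shifted share, all LPS samples lay below all control samples in 3 of the 83 arms with a control share above 1% (3.61%). They lay above in 0 of the 83. Next among the starts lower with LPS were miR-21a-3p 1 nt downstream (log2 ratio -0.23), miR-17-5p 1 nt upstream (-0.77) and miR-140-3p 1 nt downstream (-0.62). In the other direction stood miR-99b-5p 3 nt downstream (log2 ratio 0.97, SE 0.37), miR-222-3p 2 nt downstream (0.48, SE 0.19), miR-106b-3p 1 nt upstream (0.68), miR-30d-5p 1 nt downstream (0.38) and miR-222-5p 2 nt upstream (0.89). The edgeR adjusted p was 0.815 for all of these. In miR-222-5p this start held 22.5% of the arm in LPS replicate 2, against 6.73% to 10.04% in the other 5 samples, and without that sample its log2 ratio was 0.19. Leaving out the same sample moved the log2 ratio to -0.24 for miR-140-3p, 0.61 for miR-99b-5p and 0.23 for miR-30d-5p.

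miRNAs known to respond to LPS were looked up as a list. Of 15 on a list of such miRNAs, 10 had 1000 reads, and their median control share was 0.886%, beside 1.12% over all arms. Only miR-146a-5p and miR-125b-5p were at 10% or more. miR-155-5p, induced by Toll-like receptor signals, had 3 shifted reads in control sample 3 and 8 in LPS replicate 2 and 0 in the other samples, and 2132 of its 2764 reads were in LPS replicate 2, so its shares were not compared. In control and LPS samples respectively, miR-222-3p had 1.89% ± 0.202 and 2.28% ± 0.454, miR-125a-5p 0.475% ± 0.0874 and 0.348% ± 0.114, and miR-221-3p 0.163% ± 0.0214 and 0.173% ± 0.0665 (SD, n = 3). Without LPS replicate 2 the LPS mean of miR-222-3p was 2.02%. The spread was wider for miR-146b-5p, with 1.28%, 0.195% and 0.594% in the control and 0.561%, 0.429% and 0.487% in the LPS samples, and for let-7e-5p, with 0.0367%, 0.134% and 0.166% in the control and 0.162%, 0.105% and 0% in the LPS samples. The groups overlapped in each of these 5 arms. Of the 7 with enough shifted reads to be tested 0 passed an adjusted p under 0.05, and 4 had a log2 ratio above 0.

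A second list held 11 miRNAs already known for alternative 5′ ends. The 6 of these kept here had a median control share of 39.6%, and 5 were at 10% or more. Besides the miR-142a arms, the miR-101 pair and miR-140-3p, it held miR-223-3p, a myeloid miRNA that restrains granulocyte activation. miR-223-3p had 4.92% in the control and 5.62% in the LPS samples (5.07% without LPS replicate 2). Its 1 nt downstream start held 3.11%, 2.80% and 3.61% in the control and 2.99%, 4.86% and 3.40% in the LPS samples, with LPS replicate 2 highest. miR-133a-3p and miR-411-5p had no reads, and miR-34b-5p, miR-34c-5p and miR-9-5p were below 1000. This list was drawn up from what is known of these miRNAs elsewhere and with earlier results of these samples in view, so its high median is not independent evidence.

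Across families of related seeds the shares ranged widely. All 9 let-7 miRNAs were kept, with a median control share of 0.0870% and a highest of 1.74% (let-7d-5p). The miR-30 family ranged from 0.0117% (miR-30b-5p) to 3.10% (miR-30e-5p). Median shares were 0.140% in the miR-148 and miR-152 family, 0.186% in the miR-15 and miR-16 family, 0.235% in the miR-26 family, 0.247% in the miR-17 family, 0.574% in the miR-103 and miR-107 pair, 0.736% in the group of miR-125, miR-10, miR-99 and miR-100, 0.764% in the miR-181 family, 1.03% in the miR-221 and miR-222 pair and 1.59% in the group of miR-23, miR-27 and miR-24. Of the families listed, the miR-101 pair, at 31.3%, and the miR-29 family, at 10.3%, had medians above 10%.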

How the data were processed

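Small RNA libraries (TruSeq) of 6 BMM samples were sequenced on a HiSeq by the authors, who trimmed adaptors with perl scripts and Btrim64. The deposited files hold raw read counts of each distinct trimmed sequence of 11 to 40 nt, without miRNA names, which mirAnalyzer assigned for the authors. The submitters' processing notes name mm9. Hairpins here are 1174 named miRNA genes of GENCODE M21 (GRCm38). The labels give DMEM as the medium and the methods RPMI, and the 4 h come from the methods.

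Reads of 18 nt or more were assigned to arms by exact match over the full length, and arms sharing 50% of their reads were merged. A share is the shifted reads over all reads of the arm. Shares were tested with edgeR 4.0.16 (quasi-likelihood, log arm reads as offset, Benjamini-Hochberg, threshold 0.05, R 4.3.3) over starts with 10 reads in 3 samples and arms with 50 reads in every sample. DESeq2 1.42.0 and limma 3.58.1 were alternatives. Scripts were tested on simulated data. Summary shares were compared by exact permutation tests (Python 3.11.15, scipy 1.17.1), and 95% Wilson intervals cover counting error only, since reads are not independent molecules. At 2201520 to 17691405 reads per sample, the arms near 1000 reads are measured least precisely.

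Names follow RefSeq where matched (140 of 159 arms), and otherwise the GENCODE gene. Named are all miR-24 and miR-29 arms, the 10 highest and 5 lowest control shares, the 10 most abundant arms, the 5 smallest p in each direction, the 10 most-read shifted starts, arms with another start in LPS, seed matches, the 3 arms on each side of the read limit and the lists of LPS-responsive miRNAs and known alternative starts. Further arms at 10% or more (miR-210-3p, miR-192-5p, miR-21a-3p, miR-423-3p and miR-125b-2-3p), the families and the marker lists were described as well. The members and lists were chosen with earlier results of these data known.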

Additional observations from a re-analysis of the deposited data

How the results depend on the processing

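The counts of starts and of arms called higher or lower, 0 in each case, stayed at 0 under all alternatives run but those named here. With no filter on low reads, 1 start was higher (miR-222-5p 2 nt upstream) and 1 lower (miR-146a-5p 1 nt upstream) of 473 tested, and in both LPS replicate 2 lay outside the range of the other 5 samples. When the samples numbered 2 were also left out under the replicate block, a choice made after seeing the data, 1 of 87 arms was lower (miR-21a-3p, log2 ratio -0.35). The replicate block with all samples gave 0 in each direction over 142 starts and 92 arms, and the pooled difference stayed at -0.0977 percentage points with a paired exact permutation p = 0.25. That is the smallest p this test allows with 3 pairs, so it could not pass. LPS was lower in each pair, by very little in the samples numbered 3 (3.42417% against 3.42462%). Deviations of the shares correlated at 0.36, -0.08 and -0.22 over 92 arms for samples with the same number. Not every sample correlated best with its own number, and the main tests did not pair the samples. In level, however, miR-21a-5p, for example, stood at 170527 and 171705 RPM in control and LPS samples 1. It stood at 174319 and 139801 RPM in samples 2 and at 132669 and 131519 RPM in samples 3. In share, the main start of miR-210-3p, picked as another example, held 88.2% and 87.3% in control and LPS samples 1. It held 82.5% and 82.2% in samples 2 and 84.1% and 83.1% in samples 3. Equal numbers may thus mark pairs, which was not tested. The spread within a group, including the SDs given above, may in part lie between pairs.

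Leaving out each sample in turn gave 0 calls throughout, and 0 to 3 arms whose main start differed, the 0 being without LPS replicate 2 and the 3, with miR-425-3p added, without control replicate 3. The LPS minus control differences, in percentage points, then ranged from -0.258 to 0.0727 for the pooled share (above 0 without control replicate 1 or LPS replicate 2), from -0.140 to -0.110 for the median, from -0.0658 to 0.0981 for upstream shifts, from -0.192 to 0.0520 for downstream shifts, from -1.24 to 0.0510 for 5p arms and from 0.110 to 0.737 for 3p arms. The upstream difference turned to -0.0842 with the main start set from all 6 samples, and the median difference to 0.0251 over arms with 10000 reads. The cause was not tested. None of these passed its test, but none could. The exact permutation p cannot fall below 0.1 with all samples or below 0.2 with a sample left out. Of the other values, 54 of 916 shares of named arms moved by more than 1 SD, 37 of them when 3 bases at the 3′ end need not match, and the log2 ratios of the named starts kept their direction and did not pass the threshold in the 133 refits with limma, the replicate block, other read rules or a sample left out. The fit with no filter, described above, was not among these. Depth limits the arms near 1000 reads most.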
